A study of Mus musculus with 16 samples.

Results

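The 9 genes described here mark the fibroblasts of the meninges or are used by them: Foxc1, Foxc2, Foxd1, Aldh1a2, Crabp2, Slc47a1, Slc6a13, Ptgds and Angptl7. They were chosen by name, from earlier results on these same tumors, for how they differed by tumor location, so their differences by location are a description. Fits over all genes also made calls among them on those comparisons, and these calls are no independent test of the members. All 9 were found among the 24982 genes of the count table and the 24951 genes of the TPM table (a transcript level scaled for gene length and library size). All 9 had at least 1 count in some tumor, as 21854 genes did. No further filter on low values was applied in the fits, except in an alternative setting named as such.

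The tissue was 16 primary rhabdoid tumors (RT), each from a different mouse of the genotype Smarcb1flox/flox;R26-CreERT2 on a mixed background of 129/SV and C57BL/6. In these mice tamoxifen switches on a Cre recombinase made from the ubiquitous Rosa26 locus, which deletes Smarcb1, a subunit of the SWI/SNF chromatin remodeler, in cells of no particular type. Every group carries this deletion, and no normal meninges or untreated tissue was analysed here. The 6 intracranial extra-CNS tumors lay inside the skull but outside the brain parenchyma. They came from tamoxifen at E6 (1 mouse), E7 (1 mouse) or E8 (4 mice), and were taken at 52 to 170 days of age. The 5 extracranial tumors came from the back, mouth or nose (1 each) or the jaw (2), after tamoxifen at E6 (1 mouse) or E8 (4 mice), at 80 to 210 days. The 5 intra-CNS tumors lay within the brain parenchyma, after tamoxifen at E6 in all 5, at 30 to 180 days. The study placed the intra-CNS tumors in its Shh subgroup and the other 11 in its Myc subgroup, so in the comparisons with the intra-CNS tumors location and subgroup cannot be told apart, and the day of induction only in part. The tumor of mouse 43990A is extracranial (nose) by its label and intracranial in the study's own list, and was analysed as labelled.

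The meninges are the membranes around the brain, and their fibroblasts arise from the neural crest and the mesoderm. The forkhead factors Foxc1, Foxc2 and Foxd1 are expressed in the mesenchyme that forms them, and mice without Foxc1 fail to form normal meninges. Meningeal fibroblasts make retinoic acid, a signal to the underlying cortex, and those of the arachnoid carry transporters at the barrier between blood and cerebrospinal fluid. Some of these genes have other sources in the head: Ptgds is also made by the choroid plexus and by oligodendrocytes.

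The genes lie apart in the genome (GENCODE positions, GRCm38): Foxc1 at chr13:31806633-31812476 and Foxd1 at chr13:98354242-98359305, Foxc2 at chr8:121116171-121118895, Aldh1a2 at chr9:71215789-71296243, Crabp2 at chr3:87948666-87953376 and Slc6a13 at chr6:121300227-121337733, all on the plus strand. Slc47a1 (chr11:61343401-61378345), Ptgds (chr2:25466709-25470046) and Angptl7 (chr4:148495183-148500460) lie on the minus strand. All 9 are annotated as protein-coding, and the counts cover whole genes.

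Of the 9 genes, 6 were matched by symbol to promoter sequences from RefSeq (GRCm38.p6), with 8 windows among them because Slc6a13 has 3 start sites. Foxc2, Crabp2 and Slc47a1 are named only. The windows of Ptgds, Angptl7 and Slc6a13 are shown because Ptgds and Angptl7 had the widest ranges of level and because Ptgds and Slc6a13 had the highest Pearson's r of the member pairs over the tumors outside the parenchyma, a value that rested on 43989C and R26P115. Of the 3 Slc6a13 windows the one shown was picked because it held a match, and the other 2 held none of the motifs searched. They read 5′ to 3′ on the strand of the gene, from 250 bases before the start site. For Ptgds (chr2:25469700-25469999, minus strand) and Angptl7 (chr4:148500413-148500712, minus strand), capitals mark the bases from the start site on. For Slc6a13 (chr6:121303389-121303688, plus strand), capitals mark a match to AGGTCA on the reverse strand, at -224 from the start site.
Ptgds: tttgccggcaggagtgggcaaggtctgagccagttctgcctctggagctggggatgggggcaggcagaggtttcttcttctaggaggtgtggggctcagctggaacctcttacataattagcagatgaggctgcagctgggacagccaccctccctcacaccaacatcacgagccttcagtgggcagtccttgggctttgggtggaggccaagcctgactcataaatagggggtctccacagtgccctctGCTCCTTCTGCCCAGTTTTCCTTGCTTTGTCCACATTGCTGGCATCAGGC
Angptl7: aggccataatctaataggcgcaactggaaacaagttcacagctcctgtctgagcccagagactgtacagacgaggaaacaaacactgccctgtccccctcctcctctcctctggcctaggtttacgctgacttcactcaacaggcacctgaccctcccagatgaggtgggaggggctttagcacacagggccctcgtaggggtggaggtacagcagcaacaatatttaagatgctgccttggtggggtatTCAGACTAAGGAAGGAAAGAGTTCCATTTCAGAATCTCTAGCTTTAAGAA
Slc6a13: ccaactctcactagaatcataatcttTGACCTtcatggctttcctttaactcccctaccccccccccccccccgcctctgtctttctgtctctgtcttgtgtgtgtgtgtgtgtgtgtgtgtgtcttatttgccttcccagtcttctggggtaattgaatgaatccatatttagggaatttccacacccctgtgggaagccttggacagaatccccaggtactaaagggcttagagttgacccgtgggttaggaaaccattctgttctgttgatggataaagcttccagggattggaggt

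The 2 motifs GTAAACA and AGGTCA were searched on both strands. The forkhead motif GTAAACA was in 0 of the 8 windows and in 3.65% of all 32851 promoter windows of the same length. The retinoid receptor motif AGGTCA was in 1 of the 8, the Slc6a13 window shown, and in 16.3% of all windows. A match is only a match of letters.

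Total counts were 17889968 to 110177889 per tumor. Smarcb1 was still listed at 3.99 to 58.1 TPM across the tumors, a level that includes any cells that kept the gene. Some tumors stood apart by markers of other tissues. R26P115 (intracranial extra-CNS) had a summed level of 205433 TPM over 7 choroid plexus markers, with Ttr at 199516 TPM, against 3.50 to 133 TPM in every other tumor but the intra-CNS tumor 29048. In 29048 that sum was 4672 TPM and 6 oligodendrocyte markers summed to 6295 TPM, against 42.2 to 154 TPM elsewhere. In 43989C and R26P170 (both intracranial extra-CNS) 5 pituitary markers summed to 423 and 328 TPM, against 0.640 to 16.3 TPM elsewhere. In the extracranial jaw tumor R26P123 4 muscle markers summed to 577 TPM, against 0.768 to 116 TPM elsewhere. The epithelial marker Krt14 stood at 599 TPM in R26P123, against at most 6.41 TPM elsewhere. General fibroblast markers (7 genes, Col1a1 and Pdgfra among them) summed to 567 to 7892 TPM in the intracranial extra-CNS, 2531 to 7232 TPM in the extracranial and 121 to 536 TPM in the intra-CNS tumors.

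The levels of the 9 genes differed widely between tumors of the same location, and no tumor was high in all of them. Angptl7 and Ptgds varied most: over 16 tumors the SD of log2(TPM + 1) was 4.11 and 3.93, and of 21841 genes only 7 and 8 had a larger one. The tumor 43989C was among the 3 highest tumors for 5 of the 9 genes and 29050A, an intra-CNS tumor, for 4. The tumors 38594A, 43992A and 29225D were among the 3 highest for 0.

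**Figure D1:**
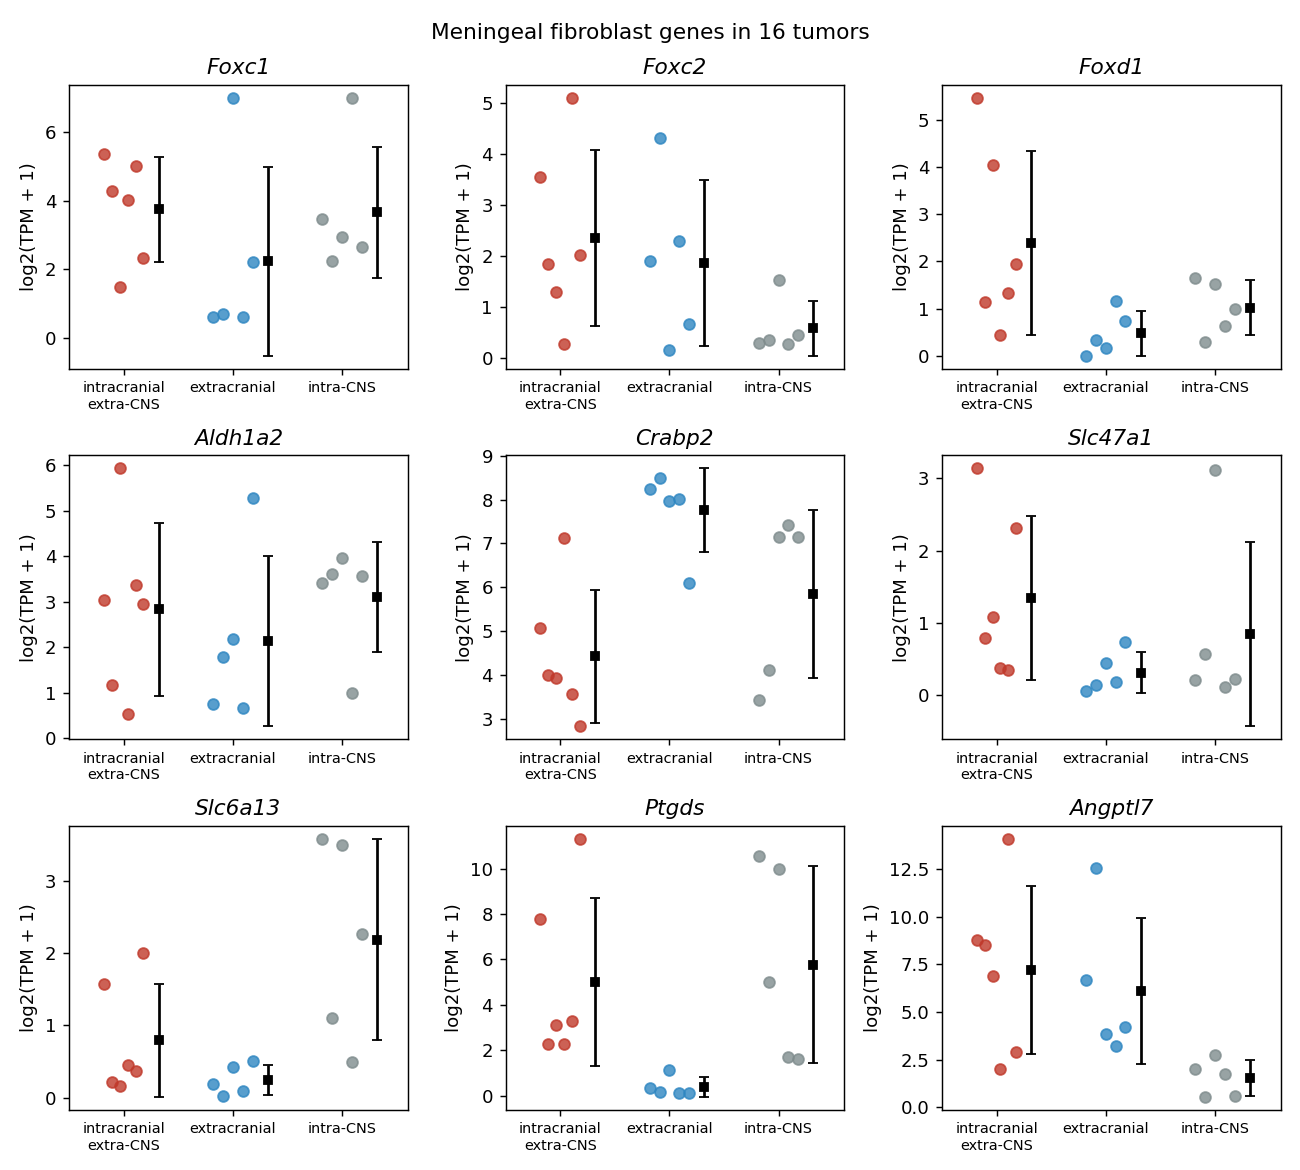
Level of each gene as log2(TPM + 1) in the 6 intracranial extra-CNS, 5 extracranial and 5 intra-CNS tumors. Circles are tumors, squares with bars are the mean and SD of the group. Ptgds in every extracranial tumor lies below all other tumors, and Crabp2 is highest in the extracranial tumors apart from R26P123.

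Of the transcription factors, Foxc1 reached its highest levels in 2 tumors of different location, 127.9 TPM in the extracranial 43990A and 127.0 TPM in the intra-CNS R26P98. In the extracranial group it was 0.526 TPM in 43825B, 0.628 TPM in 43987A, 0.538 TPM in 43998A and 3.67 TPM in R26P123. In the intracranial extra-CNS group the lowest, median and highest levels were 1.83, 16.9 and 40.7 TPM. The intra-CNS tumors besides R26P98 had 3.75 to 10.1 TPM, so all 3 groups overlapped, and 3 of the 5 extracranial tumors were below every other tumor. Between intracranial extra-CNS and extracranial tumors the log2 fold change of counts was -0.43 ± 1.38 (SE). It was 3.84 without 43990A and 4.68 with that tumor counted as intracranial, and on the log2(TPM + 1) scale the means were 3.76 ± 1.53 (SD, n = 6) and 2.23 ± 2.76 (SD, n = 5), so the direction turned with the scale and with that tumor. Against intra-CNS tumors the extracranial tumors differed by 0.24 ± 1.45 (SE), and by -4.04 without 43990A.

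Foxc2, the close relative of Foxc1 that is also needed for vessels and skeleton, was highest in R26P170 (33.4 TPM), followed by the extracranial 43987A (18.8 TPM) and 43989C (10.8 TPM). The other tumors outside the parenchyma had 0.107 to 3.91 TPM. The intra-CNS tumors had 0.203 to 0.366 TPM apart from 29050A, with 1.89 TPM. The groups overlapped, since 29225D (0.201 TPM) and 43990A (0.107 TPM) were below every intra-CNS tumor. Foxc2 had a log2 fold change of 4.35 ± 1.41 (SE) between intracranial extra-CNS and intra-CNS tumors, of 3.64 ± 1.38 (SE) between extracranial and intra-CNS tumors, and of 0.72 ± 1.20 (SE) between intracranial extra-CNS and extracranial tumors. Without R26P170 the last value became -0.49.

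Foxd1, a factor of head mesenchyme and of kidney stroma, stood at 43.1 TPM in 43989C and 15.5 TPM in 29941C, both intracranial extra-CNS. The other 4 tumors of that location had 0.356 to 2.85 TPM, the extracranial tumors 0 to 1.23 TPM and the intra-CNS tumors 0.229 to 2.14 TPM. Apart from 43989C, 29941C and R26P115 (2.85 TPM), every intracranial extra-CNS tumor lay within the range of the intra-CNS tumors. In 43825B the count was 0, which allows up to 0.138 CPM. In intracranial extra-CNS tumors its log2 fold change was 4.55 ± 1.35 (SE) against extracranial and 3.73 ± 1.29 (SE) against intra-CNS tumors, and 3.20 and 2.48 without 43989C.

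Of the retinoic acid genes, Aldh1a2, the enzyme that makes retinoic acid in the embryonic mesoderm and meninges, was highest in 29941C (59.9 TPM) and in the extracranial jaw tumor R26P123 (37.9 TPM). In the intra-CNS tumors it was 9.60 to 14.5 TPM except in R26P98, with 0.979 TPM. The median was 6.97 TPM in intracranial extra-CNS and 2.43 TPM in extracranial tumors, and all groups overlapped. The log2 fold change between these was 0.69 ± 1.17 (SE), but -0.74 without 29941C and 2.97 without R26P123.

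Crabp2, which carries retinoic acid to its nuclear receptors, was the only member expressed at 1 TPM or more in all 16 tumors, and its median was lower in the intracranial extra-CNS than in the extracranial tumors. In the extracranial tumors it was 299 TPM in 43825B, 358 TPM in 43987A, 249.9 TPM in 43990A, 258 TPM in 43998A and 67.0 TPM in R26P123. In the intracranial extra-CNS tumors the lowest, median and highest levels were 6.07, 14.6 and 138 TPM. The 2 groups overlapped only through 29225D (138 TPM) and R26P123. The log2 fold change was -2.83 ± 0.85 (SE), and between -3.93 and -1.96 over 26 alternative settings. The intra-CNS tumors spread from 9.72 to 169.8 TPM across both ranges.

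Of the transporters, Slc47a1 (an exporter of organic cations) reached 7.78 TPM in 43989C, 7.63 TPM in the intra-CNS tumor 29050A and 3.97 TPM in R26P115. It reached 1 TPM in only 4 of 16 tumors, the other being 29941C with 1.11 TPM. The extracranial tumors had 0.0398 to 0.674 TPM and 1 to 25 counts, with 1 of the 5 at or under the floor of 3 counts. The log2 fold change between intracranial extra-CNS and extracranial tumors was 3.26 ± 1.35 (SE), and 1.24 without 29048, 43989C and R26P115 together. This setting was chosen after seeing the data and leaves out the tumor with the highest oligodendrocyte, pituitary and choroid plexus sum respectively, but keeps R26P170. Between intracranial extra-CNS and intra-CNS tumors the log2 fold change of Slc47a1 was 1.02, and between -1.22 and 3.96 over 25 alternative settings.

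Slc6a13, a GABA transporter of meninges and other tissues, was highest within the brain. The intra-CNS tumors had 10.97 TPM in 29048, 10.3 TPM in 29050A, 3.79 TPM in R26P87, 1.15 TPM in 38594A and 0.410 TPM in R26P98. Outside the parenchyma only R26P115 (2.99 TPM) and 43989C (1.96 TPM) passed 1 TPM, and the extracranial tumors had 0.0207 to 0.427 TPM. All but R26P98 among the intra-CNS tumors were above every extracranial tumor. The log2 fold change between extracranial and intra-CNS tumors was -4.25 ± 1.21 (SE), and between intracranial extra-CNS and extracranial tumors it was 2.43 ± 1.11 (SE), or 0.26 without 29048, 43989C and R26P115. Of the 5 extracranial tumors 3 had no more than the floor of 3 counts, so these folds are imprecise in size.

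Ptgds, the synthase of prostaglandin D2 that is also secreted as a carrier of lipids, was the member that separated the 2 locations outside the parenchyma. In the intracranial extra-CNS tumors it was 2540 TPM in R26P115, 222 TPM in 43989C, 8.67 TPM in R26P170, 7.51 TPM in 29941C, 3.83 TPM in 43992A and 3.81 TPM in 29225D. In the extracranial tumors it was 1.18 TPM in 43990A, 0.260 TPM in 43825B, 0.111 TPM in 43987A, 0.0919 TPM in 43998A and 0.0883 TPM in R26P123. The groups did not overlap, although 4 of the 6 intracranial values lay between 3.81 and 8.67 TPM. In 4 of the 5 extracranial tumors the level rested on 1 or 2 counts, so the log2 fold change of 10.6 ± 2.79 (SE) is imprecise in size. It was 7.19 without R26P115 and 4.13 without 29048, 43989C and R26P115, and on the log2(TPM + 1) scale 4.63. In bulk tissue, fewer cells of a type and less RNA in each cell cannot be told apart. The astrocyte marker Gfap also did not overlap, at 0.674 to 164 TPM in intracranial extra-CNS and 0.0515 to 0.109 TPM in extracranial tumors. Aqp4 likewise stood at 0.0190 to 27.3 TPM and 0 to 0.0123 TPM. Slc1a3 did overlap, at 1.49 to 40.1 TPM and 0.349 to 88.7 TPM. The part of adjacent brain in the Ptgds difference was not tested.

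In the intra-CNS tumors Ptgds was 1497 TPM in 29048, 1003 TPM in 29050A, 30.6 TPM in 38594A, 2.20 TPM in R26P98 and 2.06 TPM in R26P87. All 5 were above every extracranial tumor, with a log2 fold change of -10.0 ± 2.75 (SE) for extracranial against intra-CNS. Against intra-CNS tumors the intracranial extra-CNS tumors differed by 0.58 ± 1.75 (SE), and by -2.84 without R26P115. The 2 highest tumors for Ptgds were R26P115, with the choroid plexus sum of 205433 TPM, and 29048, with the oligodendrocyte sum of 6295 TPM. The third, 29050A, had sums of 8.41 TPM for choroid plexus and 154 TPM for oligodendrocytes. The part of these tissues in the Ptgds levels was not tested.

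Angptl7, a secreted protein of the angiopoietin-like family known from cornea and sclera, had the widest range. It stood at 17252 TPM in R26P170, where it took 1.48% of all counts (95% Wilson interval 1.48% to 1.49%, counting error only), and at 6008 TPM in the extracranial jaw tumor 43987A. The other intracranial extra-CNS tumors had 435 TPM in 43989C, 358 TPM in 43992A, 118 TPM in 29941C, 6.58 TPM in R26P115 and 2.99 TPM in 29225D. The other extracranial tumors had 100.5 TPM in 43825B, 17.6 TPM in R26P123, 13.6 TPM in 43990A and 8.43 TPM in 43998A.

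The intra-CNS tumors had 0.469 to 5.84 TPM of Angptl7, below every extracranial tumor and overlapping with the intracranial extra-CNS tumors only through 29225D. Its log2 fold change was 10.7 ± 2.93 (SE) for intracranial extra-CNS and 9.45 ± 2.80 (SE) for extracranial against intra-CNS tumors. Single tumors carried much of this: without R26P170 the first was 6.76, and without 43987A the second was 4.33. Between the locations outside the parenchyma the log2 fold change was 1.30 ± 1.91 (SE), and it was -2.69 without R26P170 and 6.42 without 43987A.

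**Figure D2:**
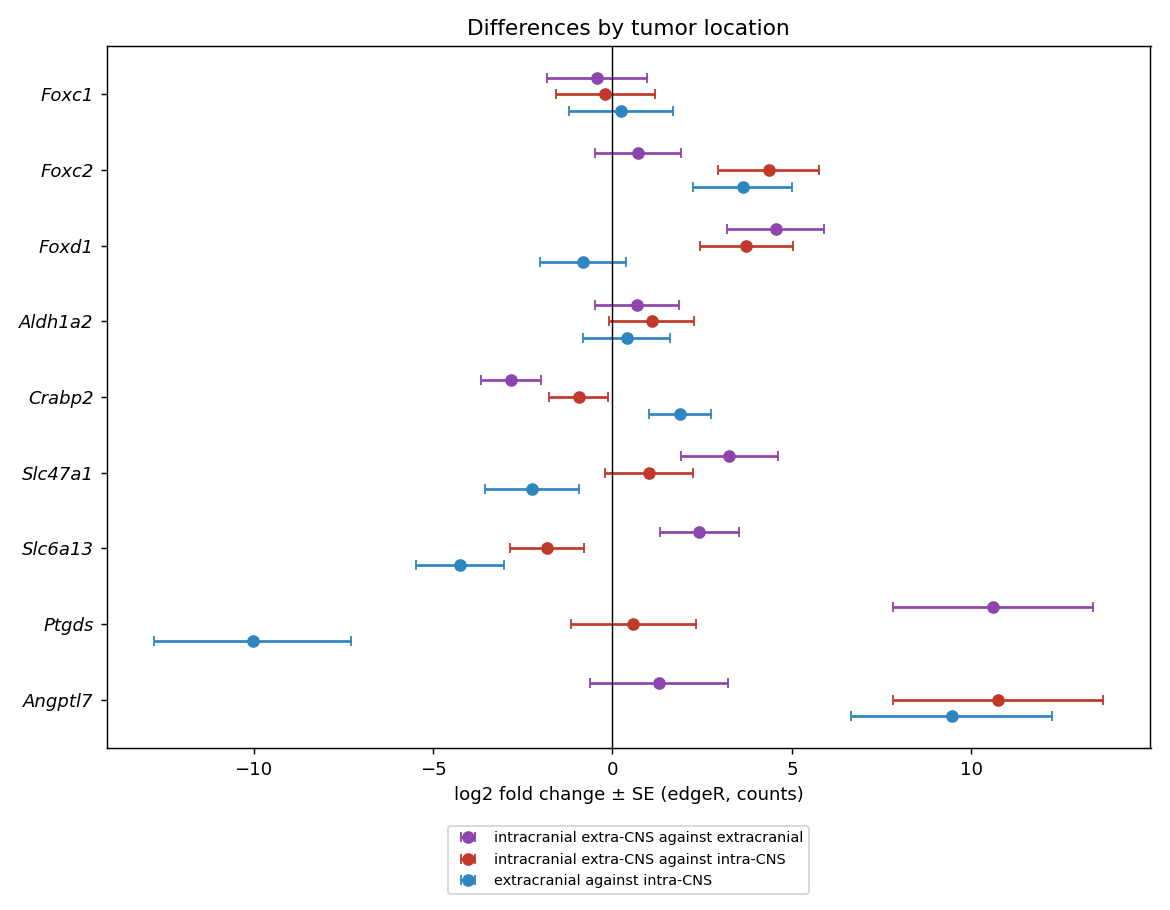
Log2 fold change of counts (x axis, edgeR, bars are SE) of each gene in 3 comparisons of location. Ptgds and Slc6a13 are lower in extracranial than in intra-CNS tumors, Angptl7 is higher at both locations outside the parenchyma than in intra-CNS tumors, the Foxc2 values are 4.35 and 3.64 in these comparisons, and the Crabp2 value is -2.83, not called by edgeR, for intracranial extra-CNS against extracranial tumors.

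Across all genes, edgeR called 0 of 21854 genes (0%) between intracranial extra-CNS and extracranial tumors (calls needed an adjusted p below 0.05 together with a log2 fold change beyond 1 in either direction), and none of the 9 members. At an unadjusted p under 0.05 there were 3199 genes. DESeq2 called 804 genes, 3 members among them (Foxd1 and Ptgds higher, Crabp2 lower), and limma on log2(TPM + 1) called 0. Between intracranial extra-CNS and intra-CNS tumors 3 members (Foxc2, Foxd1 and Angptl7, all higher) passed, against 23% of all genes. Between extracranial and intra-CNS tumors 3 members (Angptl7 higher, Slc6a13 and Ptgds lower) passed, against 25% of all genes. Without 43990A the members that passed in this comparison were 5, with Foxc1 lower and Foxc2 higher in addition. In the comparison of intracranial extra-CNS with intra-CNS tumors only Angptl7 remained when 29048, 38594A, R26P98 or R26P87 was left out. There Foxc2 also lost its call without R26P170, and Foxd1 without 43989C, 29050A or 29941C. Without 29050A, 3 members were still called there, all higher, so another member gained a call. With 43990A counted as intracranial extra-CNS, Foxd1 was also not called there (3.51). That setting called 4 members in extracranial tumors, Foxc1 (-4.04) in addition to Angptl7, Slc6a13 and Ptgds. Without 29048, 43989C and R26P115 together the called members in intracranial extra-CNS tumors were Angptl7 (log2 fold change 11.42), Slc6a13 (-3.49) and Ptgds (-4.89). In that setting Foxc2 (4.30) and Foxd1 (2.89) were not called. In extracranial tumors Angptl7 lost its call without 43987A. Nothing about the members can be read from these calls or shares, since the members were selected on the same contrasts.

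Ranges of TPM did not overlap between intracranial extra-CNS and extracranial tumors for 1 member (Ptgds), against 0.824% of 21841 genes. They did not overlap between intracranial extra-CNS and intra-CNS tumors for 0 members, against 21.3% of genes, or between extracranial and intra-CNS tumors for 2 members (Angptl7 and Ptgds), against 27% of genes. The median log2 fold change over the 9 members was 1.30 between the locations outside the parenchyma, 1.02 for intracranial extra-CNS and 0.24 for extracranial against intra-CNS tumors, beside medians of 0.01, 0.06 and 0 over all genes tested.

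**Figure D3:**
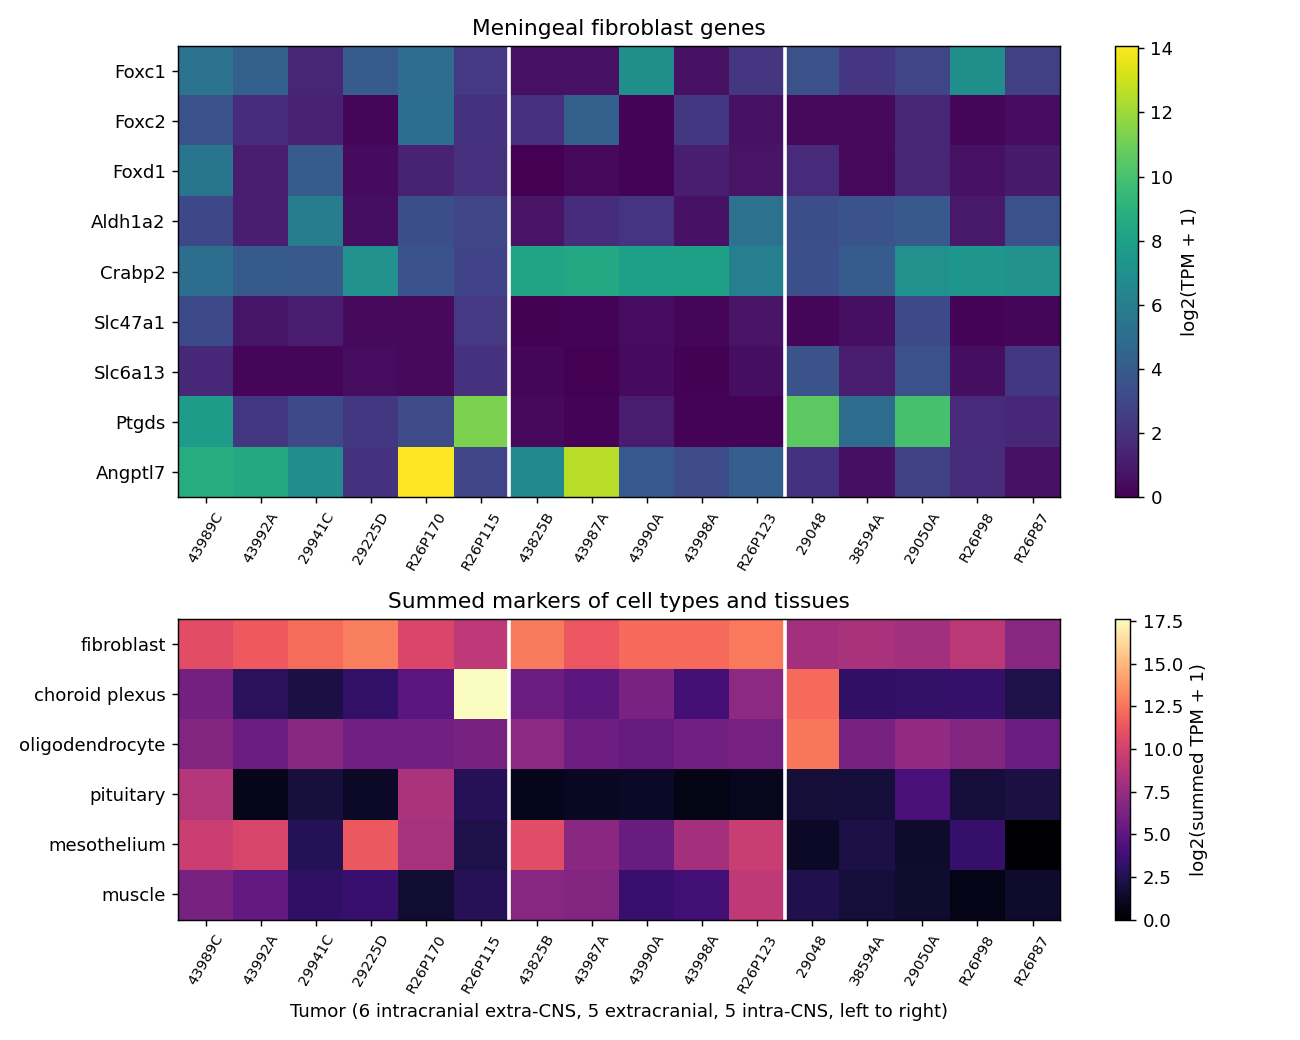
Levels by tumor, as log2(TPM + 1) for the 9 genes (upper panel) and log2(summed TPM + 1) for marker lists of fibroblasts and other tissues (lower panel). White lines part the 6 intracranial extra-CNS, 5 extracranial and 5 intra-CNS tumors. The 2 tumors with high choroid plexus markers, R26P115 and 29048, are also the highest for Ptgds.

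The day of tamoxifen and the age at collection were not used to choose the genes, and both were tested over the 11 tumors outside the parenchyma with location in the model. Of these tumors, 3 (43825B, 29225D and R26P170) had been induced at E6 or E7 and 8 at E8. The earlier-induced tumors were taken at 210, 147 and 170 days and the others at 52 to 123 days, so day of induction and age cannot be told apart. Foxd1 was 0 to 1.52 TPM in the earlier and 0.119 to 43.1 TPM in the later tumors, and Slc47a1 was 0.0398 to 0.305 TPM and 0.102 to 7.78 TPM. The log2 fold change, earlier against later, was -4.45 ± 1.43 (SE) for Foxd1 and -3.44 ± 1.07 (SE) for Slc47a1. In edgeR none of the 9 members passed (adjusted p 0.967 to 0.986), as 0 of 21261 genes did (0%). At an unadjusted p under 0.05 there were 618 genes, 2 members among them (Foxd1 and Slc47a1), and DESeq2 called 50 genes, Foxd1 among them. Foxd1 was lower in the earlier tumors in each of 15 alternative settings, and Angptl7 changed from 4.18 ± 3.08 (SE) to -4.83 without R26P170.

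Per 100 days of age the log2 slopes of the members ran from -3.88 ± 2.01 (SE) for Foxd1 to 3.60 ± 4.27 (SE) for Angptl7. In edgeR none passed (adjusted p 0.999 for each), and 1 of 21261 genes did (0.0047%). At an unadjusted p under 0.05 there were 719 genes and 0 members, and DESeq2 called 233 genes and 0 members. The slope of Angptl7 was -3.65 without R26P170, the tumor with the highest level and taken at 170 days.

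Among themselves the members did not move as a single group. Over the 11 tumors outside the parenchyma, the 36 pairs had a median Pearson's r of 0.14 for log2(TPM + 1), with 5 pairs above 0.7 and 13 below 0. These points share tumors and the r values are a description. Slc6a13 and Ptgds had r = 0.93 (Spearman's rho 0.48), Slc47a1 and Slc6a13 0.88 (rho 0.65), and Slc47a1 and Ptgds 0.87 (rho 0.65). Without 43989C and R26P115, the 2 tumors farthest from the median, these became 0.21, 0.24 and 0.52, so they rested on those tumors. Foxc2 and Angptl7 had r = 0.85 (rho 0.63), and 0.57 without 43987A and R26P170. Foxd1 and Slc47a1 (r = 0.81, rho 0.73) stayed at 0.73 without 29941C and 43989C, and at 0.73 when levels were centred within location. Crabp2 had a negative r with each of the other 8 genes, the lowest with Ptgds (-0.71), values that hold the differences between locations the genes were chosen for. Centred within location, the r with Ptgds was -0.36, the lowest was with Aldh1a2 (-0.64) and that with Foxc1 turned to 0.10.

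**Figure D4:**
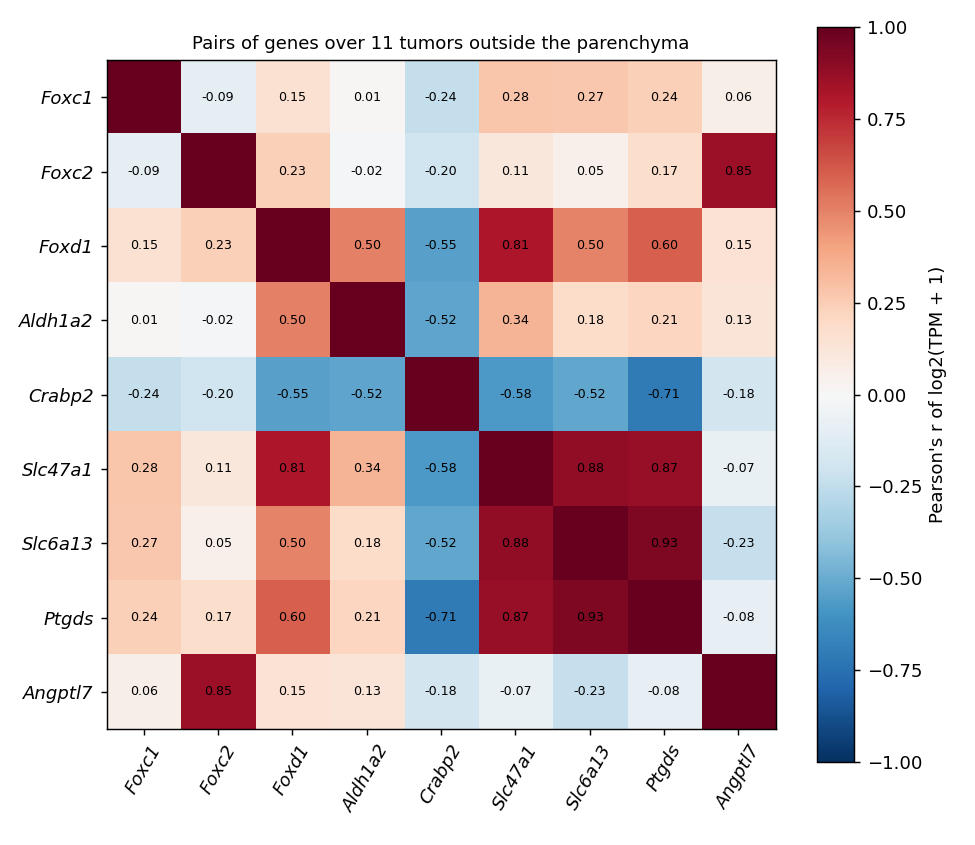
Pearson's r of log2(TPM + 1) for each pair of the 9 genes over 11 tumors outside the parenchyma (6 intracranial extra-CNS, 5 extracranial). Slc47a1, Slc6a13 and Ptgds form a block of high values, Foxc2 pairs with Angptl7, and Crabp2 is negative with all others at levels not centred within location.

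Of 15015 other genes with a mean of at least 1 TPM in these 11 tumors, those with the pattern most like Ptgds were Stk32a (r = 0.96, and 0.91 without 43989C and R26P115) and Plscr2 (0.94, and 0.79). The same genes in reverse order were nearest to Slc47a1 (Plscr2 0.90, Stk32a 0.89), but at 0.58 and 0.44 without those tumors. Nearest to Angptl7 were M1ap (0.91) and Ebf4 (0.88), to Foxc2 Npdc1 (0.89) and Col28a1 (0.88), and to Foxc1 Amph (0.90) and Prdm15 (0.89). Nearest to Crabp2 were Txnl4b (0.93) and Wdr53 (0.90), to Aldh1a2 Mchr1 (0.89) and 2410004B18Rik (0.87), and to Foxd1 Usp38 (0.86) and Gm15246 (0.85). For Foxd1 both fell, to 0.29 and 0.40, without 29941C and 43989C, and for Aldh1a2 to 0.72 and 0.54 without R26P123 and 29941C. Those of Foxc1, Foxc2, Crabp2 and Angptl7 were at 0.71 to 0.90 without their 2 extreme tumors. No nearest gene was sought for Slc6a13, which reached 1 TPM in fewer than 3 of the 11 tumors.

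Other genes of the same pathways were read from lists written with earlier results known. Between intracranial extra-CNS and extracranial tumors edgeR called none of the 68 genes in 6 lists, as it called none among all genes. DESeq2 called 804 of all genes there, and some alternative settings called list genes, Ptgis among them. In the comparisons with intra-CNS tumors the counts below are of called genes and stand beside 23% (intracranial extra-CNS) and 25% (extracranial) of all genes called, and list medians beside 0.06 and 0 over all genes. Of 16 other retinoic acid genes, 6 were called higher and 1 lower at each location (43.8%), with median log2 fold changes of 1.35 and 1.66. Crabp1, the relative of Crabp2, was higher by 9.94 ± 2.29 (SE, adjusted p = 0.00494, edgeR) in intracranial extra-CNS and 9.70 ± 2.28 (SE, adjusted p = 0.00529) in extracranial than in intra-CNS tumors. Its lowest, median and highest levels were 67.8, 1224 and 5322 TPM in intracranial extra-CNS tumors, 0.819, 1480 and 4952 TPM in extracranial and 0, 2.81 and 5.40 TPM in intra-CNS tumors. The groups outside the parenchyma overlapped in Crabp1, and the extracranial range alone reached down to the intra-CNS levels.

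Aldh1a3, another enzyme that makes retinoic acid, was higher by 7.22 ± 1.39 (SE, adjusted p = 0.00163) in intracranial extra-CNS and 5.78 ± 1.32 (SE, adjusted p = 0.00439) in extracranial than in intra-CNS tumors. Aldh1a1, a further such enzyme, had log2 fold changes of -3.09 ± 1.01 (SE, adjusted p = 0.0330) and -5.46 ± 1.22 (SE, adjusted p = 0.00392), and its median was 2.09 TPM in intracranial extra-CNS, 0.531 TPM in extracranial and 5.05 TPM in intra-CNS tumors. Cyp26b1, which degrades retinoic acid, was higher by 4.25 ± 0.74 (SE, adjusted p = 0.000845) and 2.51 ± 0.70 (SE, adjusted p = 0.0139), and Cyp26a1 by 3.79 ± 1.32 (SE, adjusted p = 0.0424) in intracranial extra-CNS tumors. Cyp26a1 kept its call in 12 of 25 alternative settings, with log2 fold changes of 1.45 to 5.01, and lost it without 29048, 38594A, 43987A, 43989C, 43992A, 29050A, 29941C or R26P87. Aldh1a1 kept its call in 16 of 25 settings in the first comparison (-3.44 to -0.74) and in all 25 in the second, and lost the first without 29048, 43989C, 43992A, 29225D or R26P170.

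**Figure D5:**
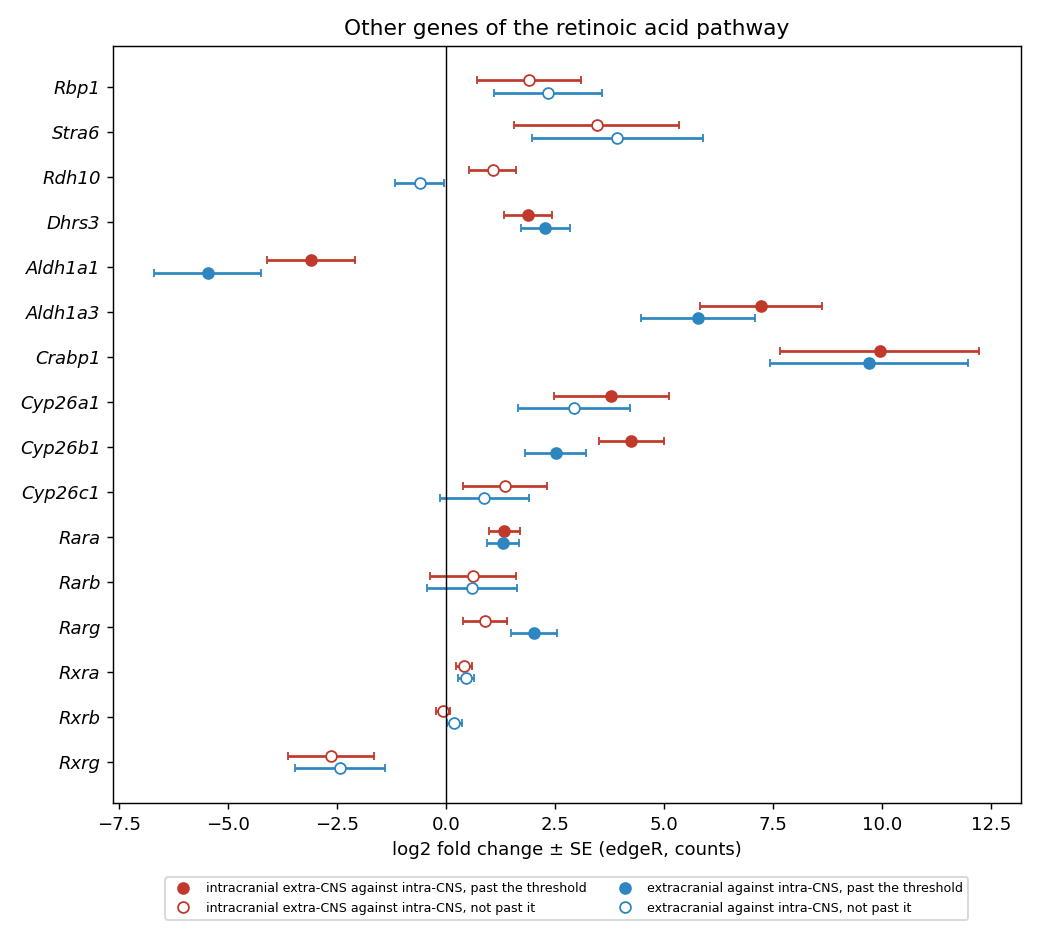
Log2 fold change of counts (x axis, edgeR, bars are SE) of 16 other retinoic acid genes against intra-CNS tumors. Filled circles are called genes (adjusted p below 0.05, log2 fold change beyond 1 in either direction). Crabp1 and Aldh1a3 are highest and Aldh1a1 lowest at both locations.

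Of 11 other prostaglandin genes, 3 were called higher in intracranial extra-CNS (27.3%) and 6 in extracranial tumors (54.5%), and 0 were called lower, with medians of 1.02 and 1.92. The first share is close to that of all genes. Ptges, the synthase of prostaglandin E2, was higher by 4.77 ± 0.67 (SE, adjusted p = 0.000201) in intracranial extra-CNS tumors. Ptgs2, the inducible cyclooxygenase, was higher by 5.22 ± 1.48 (SE, adjusted p = 0.0164) there and by 7.79 ± 1.68 (SE, adjusted p = 0.00314) in extracranial tumors. Ptgis, the prostacyclin synthase, was higher by 3.32 ± 1.04 (SE, adjusted p = 0.0270) in intracranial extra-CNS and by 7.57 ± 1.29 (SE, adjusted p = 0.000645) in extracranial tumors. Its median was 16.8 TPM in the former, 861 TPM in the latter and 4.76 TPM in intra-CNS tumors, and directly between the locations outside the parenchyma the log2 fold change of -4.26 ± 1.02 (SE, adjusted p = 0.156) was called in 2 of 26 settings. Its call in intracranial extra-CNS tumors stood in 17 of 25 settings (1.65 to 3.58) and was lost without 29048, 38594A, 43992A, 29050A or R26P87. Tbxas1, the thromboxane synthase, was higher by 2.46 ± 0.54 (SE, adjusted p = 0.00350) in extracranial tumors. Hpgds, the other synthase of prostaglandin D2, was higher by 2.01 ± 0.53 (SE, adjusted p = 0.0107) in extracranial tumors. All 3 macrophage markers (Csf1r, Adgre1 and Cd68) were also called higher at both locations, and their summed level was 169.8 to 721 TPM in intracranial extra-CNS, 497 to 2191 TPM in extracranial and 135 to 168 TPM in intra-CNS tumors. Their part in the prostaglandin values was not tested.

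Of 8 forkhead genes near or related to the members, Foxf1 was higher by 5.06 ± 1.59 (SE, adjusted p = 0.0274) in intracranial extra-CNS tumors and Foxl1 in both comparisons, and 0 were called lower. These calls are 25% and 12.5% of the list, close to and below the shares of all genes, with medians of 1.98 and 0.66. On chromosome 8, Foxl1 lies 9045 bases and Foxf1 28027 bases from Foxc2. In intracranial extra-CNS tumors Foxf1 kept its call in 20 of 25 settings (3.03 to 5.84) and lost it without 29048, 38594A, 29050A, 29941C or R26P98. Foxl1, at most 5.60 TPM in any tumor, kept its call in 11 of 25 settings there (0.62 to 5.35) and in 21 of 25 in extracranial tumors (0.91 to 6.44), there lost among single tumors without 43987A. In intracranial extra-CNS tumors the Foxl1 call stood without 43987A, 43990A, 43992A, 29225D, R26P123 or R26P115 and fell without any other single tumor.

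Of 22 other meningeal genes, 2 were called higher and 1 lower in intracranial extra-CNS (13.6%), and 2 higher and 2 lower in extracranial tumors (18.2%), below the shares of all genes, with medians of 0.03 and -1.38. S100a6, a calcium-binding protein, was higher by 5.87 ± 1.02 (SE, adjusted p = 0.00082) in intracranial extra-CNS and 4.99 ± 0.98 (SE, adjusted p = 0.00176) in extracranial tumors. Zic1, a factor of the meninges and of neural progenitors, had a log2 fold change of -5.09 ± 1.43 (SE, adjusted p = 0.0152) in extracranial tumors, and its median was 333 TPM in intra-CNS, 44.4 TPM in intracranial extra-CNS and 0.0668 TPM in extracranial tumors. The other calls in extracranial tumors were Tbx18 (4.37 ± 1.27, SE) and Lama1 (-5.21 ± 1.70, SE), the latter lost without 43825B, 43987A, 43990A, 43998A or 29050A. Tbx18 stood at 57.4 TPM in 43998A and 74.4 TPM in R26P123. It was 0.327 to 5.22 TPM in the other extracranial and 0.740 to 3.32 TPM in the intra-CNS tumors, so these groups overlapped. In intracranial extra-CNS tumors the other calls were Slc13a3 (-2.68 ± 0.85, SE), lost without 43992A, 29050A, 29941C, 29225D or R26P98, and Dpp4 (2.37 ± 0.86, SE), which was called in only 8 of 25 settings. Among transporters related to the members, Slc6a11, a GABA transporter of glia, had log2 fold changes of -7.09 ± 1.33 (SE, adjusted p = 0.00137) in intracranial extra-CNS and -11.0 ± 1.76 (SE, adjusted p = 0.000427) in extracranial tumors. Its extracranial levels were only 0 to 0.0897 TPM, so the second fold is imprecise in size. Of 3 astrocyte markers (Gfap, Aqp4 and Slc1a3), 0 were called in intracranial extra-CNS and 2 were called lower in extracranial tumors, and their summed level was 2.19 to 213 TPM in the former, 0.400 to 88.8 TPM in the latter and 53.9 to 1220 TPM in intra-CNS tumors. Their part in the Slc6a11 values was not tested. Of 6 angiopoietin-like genes, Angptl4 was higher at both locations, by 4.20 ± 0.86 (SE, adjusted p = 0.0025) and 4.10 ± 0.87 (SE, adjusted p = 0.00286), and 0 were called lower. This is 16.7% of the list in each comparison, below the share of all genes, with medians of 0.50 and 2.55.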

How the data were processed

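RNA was sequenced from 16 frozen tumors, each from its own mouse (polyA, stranded libraries, paired reads). Per the labels the authors trimmed reads with Trim Galore and aligned them with STAR 2.5.3a to mm10, and their deposited whole-number counts per gene are not normalized. TPM values of these 16 tumors were deposited as well. The gene annotation is not given in the sources used here, and gene positions came from GENCODE (GRCm38). The members and lists were chosen with earlier results of these data known.

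Counts were fitted, for 21854 genes above 0 in at least 1 tumor, with edgeR 4.0.16 (TMM, glmQLFit, glmQLFTest) in R 4.3.3, with 3 locations over all 16 tumors. Day of tamoxifen and age were fitted over the 11 tumors outside the parenchyma (21261 genes), with location as covariate. P-values were adjusted by Benjamini-Hochberg over all genes tested, and calls needed an adjusted p below 0.05 together with a log2 fold change beyond 1 in either direction (no such limit for the slope with age). The code was tested on simulated data. Levels were log2(TPM + 1), and the floor was 3 counts. Wilson intervals have 95% confidence and cover counting error only, since reads carry no molecular identifiers. Lists were named by up to 4 called genes of largest fold change, and nearest genes were the 2 of highest r. Alternatives were DESeq2 1.42.0, limma 3.58.1, other size factors, a filter on low counts, 2 locations alone, the scheme of mouse names as covariate, 43990A as intracranial, tumors induced at E8 alone and the omission of single tumors. Python 3.11.15, pandas 2.3.3, numpy 2.4.6, scipy 1.17.1 and matplotlib 3.10.9 were used. Of 120 pairs of count columns 0 were identical, and p-values measure the spread between tumors of single mice. The result of 1 listed gene is not reported here.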

Additional observations from a re-analysis of the deposited data

Results flagged for a closer look

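Within groups of 5 or 6 tumors, 7 of the 27 combinations of gene and location held a tumor far from the others by Dixon's test on log2(TPM + 1). Chance gives about 1 in 20, and the 27 combinations share tumors. Foxc1 was high in 43990A among extracranial tumors (7.01 on the log2 scale, the next at 2.22) and in R26P98 among intra-CNS tumors (7.0, the next at 3.48). The intra-CNS tumor 29050A was high in Foxc2 (1.53, the next at 0.45) and in Slc47a1 (3.11, the next at 0.57). R26P98 was low in Aldh1a2 among intra-CNS tumors (0.98, the next at 3.41), and R26P123 was low in Crabp2 among extracranial tumors (6.09, the next at 7.97). Ptgds in 43990A was the highest of the extracranial tumors (1.12, the next at 0.33), on 13 counts. Of the 7, the tumor 43990A, whose location the sources give differently, accounts for 2.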

How the results depend on the processing

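Between intracranial extra-CNS and extracranial tumors the number of genes called was 0, against 804 with DESeq2, 4 with limma on log2(TPM + 0.1), 1 with the 2 groups alone, 37 with 43990A as intracranial extra-CNS, 7 without 29048, 43989C and R26P115 (chosen after seeing the data) and 0 to 4 when single tumors were left out, the 4 without 43990A. Members called were 0, but 3 with DESeq2. Against intra-CNS tumors, limma on log2(TPM + 1) called 5155 genes (1184 higher, 3971 lower) where edgeR called 5034 (2673 higher, 2361 lower) for intracranial extra-CNS, and 5050 (1268 higher, 3782 lower) where edgeR called 5466 (2826 higher, 2640 lower) for extracranial tumors. Members called for intracranial extra-CNS were 3, and 1 with limma at either pseudocount or with mouse names as covariate, and 1 to 3 without single tumors. For extracranial tumors they were 3, and 1 with limma on log2(TPM + 1) and 2 to 5 without single tumors. DESeq2 gave Angptl7 no p-value in the location comparisons. For the day of tamoxifen 0 genes were called, but 50 with DESeq2, 1 member among them, and 0 to 1 without single tumors (1 without 29225D). For age 1 gene was called, but 233 with DESeq2, 0 with a filter on low counts and 0 to 1 without single tumors. It was 0 without 43825B, 43987A, 43990A, 43998A, 43992A or 29941C. The cause was not tested. Mean log2(TPM + 1) and log2 CPM gave the same direction in 26 of 27 differences between locations, Aldh1a2 in intracranial extra-CNS against intra-CNS tumors being the other (-0.28 and 0.06), and 8 of the 27 moved by more than the spread. Slc6a13 was removed by the filter on low counts among the 11 tumors, and Ptgds, Slc47a1 and Slc6a13 rested on 1 to 25 counts in extracranial tumors. No paired analysis was possible because no mouse gave tumors to more than 1 group.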
